A study of Mus musculus with 8 samples.

Results

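The cytokine receptor genes described here were *Il2rg*, *Il7r*, *Il2ra*, *Il2rb*, *Il15ra*, *Il4ra*, *Il21r*, *Il12rb1*, *Il12rb2* and *Il18r1*. They were taken by symbol from a list drawn up with earlier results of these data known, and all 10 were found among the 55335 genes of the count table. RNA was sequenced from PD-1+CD44+ CD8+ T cells sorted out of tumors of MC38, a colon carcinoma line of the mouse implanted subcutaneously in C57BL/6 mice, and these cells are called TILs here. The 4 wildtype (WT) samples came from Lsd1f/f mice, which carry the floxed *Lsd1* (*Kdm1a*) allele without a Cre, and the 4 LSD1-deficient (KO) samples from Cd4-Cre+Lsd1f/f littermates, so both groups share the floxed allele. Cd4-Cre is active from the developing thymocyte on, so that CD4+ T cells of a KO mouse lose the gene as well as the sorted CD8+ cells. A WT sample pooled 2 mice, a KO sample held 1 mouse, and either was made from 10000 to 20000 cells, so pooling cannot be told apart from genotype. The protocol gives day 18 after implantation and the design text of the series gives 14 days. The mice were 6 to 10 weeks old. The columns of the count table carry numbers and no genotype, and the first 4 (S1 to S4) are taken as WT and the last 4 (S5 to S8) as KO, following the key of the study's sample plot.

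Cytokines of the common gamma chain family bind a private receptor chain that pairs with the shared gamma chain encoded by *Il2rg*, and signal through JAK1 and JAK3 to STAT proteins. In CD8+ T cells, IL-7 and IL-15 are known to support survival of naive and memory cells, IL-2 to drive expansion, and IL-4 and IL-21 to shape differentiation. IL-12 signals through a receptor of 2 chains to STAT4, and IL-18 through a receptor of the IL-1 family to MyD88, and together these cytokines are known to induce interferon gamma in T cells without antigen.

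Of the 10 receptor genes, 5 were higher and 1 was lower in KO than in WT cells, and 4 did not pass the thresholds. The higher genes were *Il7r*, *Il12rb2*, *Il2ra*, *Il12rb1* and *Il18r1*, with fold changes of 2.30, 2.19, 1.74, 1.72 and 1.61. *Il4ra* fell to 49.8% of its WT mean. Calls required more than a 1.5-fold difference together with an adjusted p below 0.01 (edgeR, quasi-likelihood, Benjamini-Hochberg), and of the 15378 genes tested 2.91% were called higher, 1.99% lower and 4.9% in either direction. At any fold, these 6 genes were also the ones with an adjusted p under 0.01 or 0.05, as had 5.63% and 11.3% of all genes. They were the ones whose groups did not overlap, while 8.99% of all tested genes had their KO samples wholly above and 8.28% wholly below the WT samples. The median log2 fold change was 0.40 over the 10 genes and -0.01 over all genes tested. All 10 passed the filter on low counts. In bulk RNA, fewer cells that express a gene and less RNA per cell cannot be told apart.

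**Figure D1:**
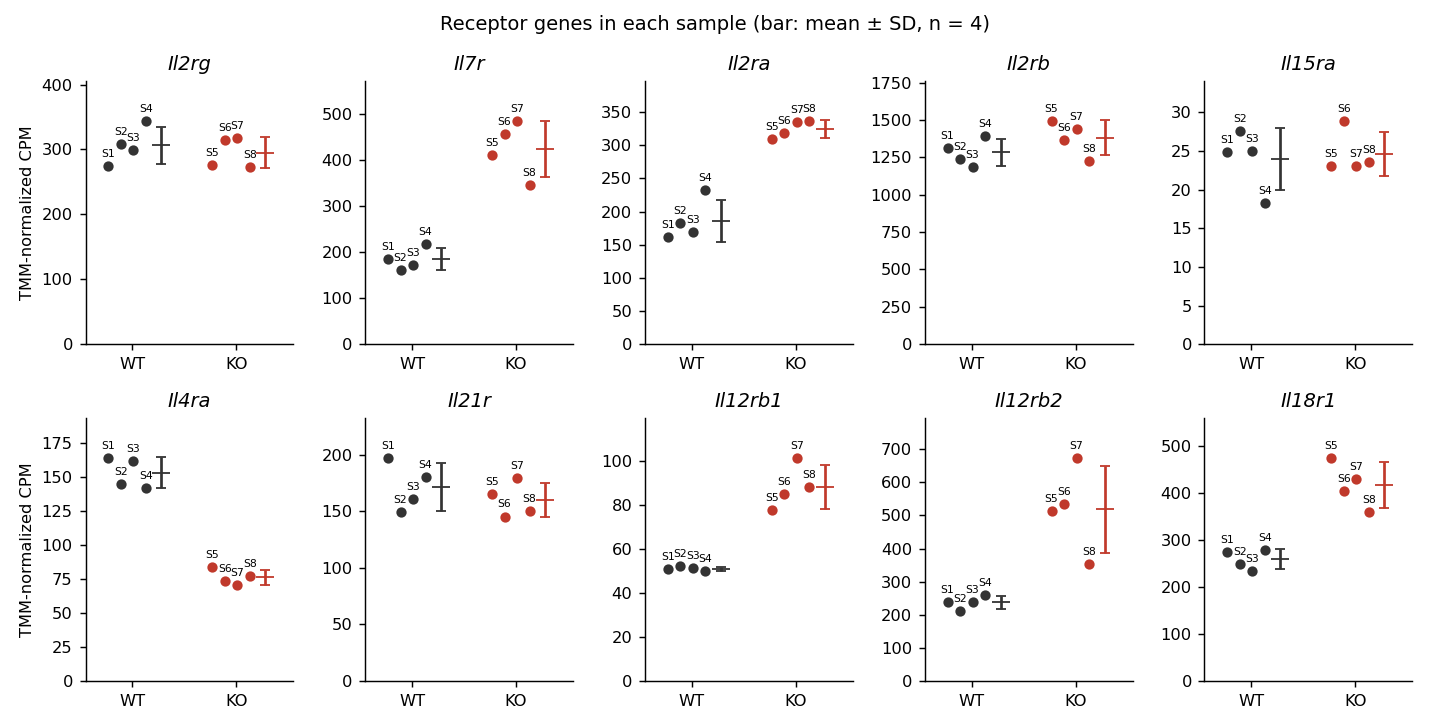
TMM-normalized CPM of the 10 receptor genes in each of the 8 samples, with WT samples S1 to S4 in black and KO samples S5 to S8 in red, and the mean ± SD of each group (n = 4) beside the points. Every KO sample lies above every WT sample for *Il7r*, *Il2ra*, *Il12rb1*, *Il12rb2* and *Il18r1* and below for *Il4ra*, while the groups overlap for the other 4 genes.

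Several values of the whole series touch these results. Total counts on genes ranged from 11657807 to 30295406 per sample, S8 being the deepest. *Kdm1a* was at 42.7 to 47.2 CPM (reads on the gene relative to all counted reads, scaled with TMM factors) in WT and 25.2 to 34.8 CPM in KO samples, which differed by -0.55 on the log2 scale and missed the threshold (standard error, SE, 0.14; adjusted p = 0.0163). These counts are over the whole *Kdm1a* gene, so they do not measure how far the floxed allele was deleted. Transcripts of the sorted cell type were present in every sample, with *Cd8a* at 1012 to 1411 CPM and *Cd3e* at 310.2 to 418 CPM. Of 7 CD8 T cell markers, *Cd44* was called higher, at 399 to 488 CPM in WT and 670 to 952 CPM in KO samples. *Cd8b1* and *Cd3g* were lower in every KO sample than in any WT sample but were not called. Their log2 fold changes were -0.39 and -0.36 (adjusted p = 0.0158 and 0.0505 in edgeR). Of 17 myeloid marker genes, 12 were called lower in KO samples, their summed level being 493 to 1514 CPM in WT and 240.04 to 349 CPM in KO samples. None of the 17 was at 0 throughout, and *Csf1r*, the receptor for the macrophage growth factor CSF1, was at 28.5 to 82.9 CPM in WT and 2.78 to 9.54 CPM in KO samples. With a score of these markers as a covariate, none of the 6 receptor calls held. The log2 fold changes were then 1.20 for *Il7r*, 1.21 for *Il12rb2*, 0.69 for *Il2ra*, 0.62 for *Il12rb1*, 0.58 for *Il18r1* and -0.90 for *Il4ra*, and the adjusted p in edgeR ranged from 0.124 to 0.5. The score separated the genotypes, so the myeloid RNA and the genotype cannot be told apart in that fit, in which 29 higher and 2 lower genes of all those tested were called.

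The shared chains were measured first. *Il2rg* encodes the common gamma chain and lies on the X chromosome of GRCm38 from 101264378 to 101268255. It was at 274, 309, 299 and 344 CPM in S1 to S4 and at 275, 315, 317 and 273 CPM in S5 to S8. The groups overlapped, with S4 above every KO sample, and the log2 fold change was -0.05 (SE 0.10, 95% interval -0.26 to 0.15, adjusted p = 0.804).

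*Il2rb* encodes the beta chain shared by the IL-2 and IL-15 receptors and lies on chromosome 15 from 78479256 to 78495271. It was at 1309, 1242, 1187 and 1395 CPM in S1 to S4 and at 1492, 1366, 1439 and 1224 CPM in S5 to S8. The groups overlapped, with S8 below 3 of the 4 WT samples, and the log2 fold change was 0.11 (SE 0.09, 95% interval -0.08 to 0.29, adjusted p = 0.53). Both intervals lie within the fold of 1.5, which is 0.58 on the log2 scale.

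*Il7r* encodes the IL-7 receptor alpha chain, which pairs with the gamma chain and is known as a marker of long-lived T cells. The gene lies on chromosome 15 from 9505788 to 9530176. It was at 185, 162, 172 and 217 CPM in S1 to S4 and at 411, 456, 484 and 345 CPM in S5 to S8. No KO sample reached down to the WT values, and S8 was the lowest of the KO samples. *Il7r* had the highest log2 fold change of the 10 genes, 1.20 (SE 0.12, 95% interval 0.95 to 1.46, adjusted p = 4.65e-06), and fits lacking any one sample gave 1.13 to 1.29.

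The promoter windows of *Il7r*, *Il12rb2* and *Il4ra* are shown because these genes had the 2 largest rises and the only fall. Each window runs from 250 bases before to 50 bases after a RefSeq transcription start on GRCm38.p6 and is written 5′ to 3′ on the strand of the gene. Capitals mark matches, on either strand, to the letters TTCNNNGAA (bound by STAT proteins), CTTTGA (TCF/LEF), TGTGGT (RUNX), AGGAAG (ETS) and AAATCA (GFI1), of which no 2 matches overlap in these windows. The windows are chr15:9529827-9530126 (minus strand), chr6:67376139-67376438 (minus strand) and chr7:125552021-125552320 (plus strand).
Il7r: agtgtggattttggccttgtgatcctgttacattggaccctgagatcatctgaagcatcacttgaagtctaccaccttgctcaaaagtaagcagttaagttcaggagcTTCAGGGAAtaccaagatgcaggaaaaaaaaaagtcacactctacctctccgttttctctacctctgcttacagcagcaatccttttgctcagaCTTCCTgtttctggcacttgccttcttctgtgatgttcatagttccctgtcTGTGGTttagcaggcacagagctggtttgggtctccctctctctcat
Il12rb2: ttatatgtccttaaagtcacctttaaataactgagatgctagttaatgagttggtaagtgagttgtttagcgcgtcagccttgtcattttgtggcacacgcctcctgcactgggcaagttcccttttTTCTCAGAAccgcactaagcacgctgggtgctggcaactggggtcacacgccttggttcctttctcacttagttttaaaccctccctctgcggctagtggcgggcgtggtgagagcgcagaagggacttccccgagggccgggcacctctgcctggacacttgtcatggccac
Il4ra: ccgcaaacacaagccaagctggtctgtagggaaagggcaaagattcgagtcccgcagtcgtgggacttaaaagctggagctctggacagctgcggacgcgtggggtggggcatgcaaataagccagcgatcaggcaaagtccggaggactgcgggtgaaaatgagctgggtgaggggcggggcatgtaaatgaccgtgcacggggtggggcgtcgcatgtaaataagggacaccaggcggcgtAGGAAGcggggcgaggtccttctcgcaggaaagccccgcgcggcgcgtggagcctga

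The *Il7r* window held 1 match each to the STAT, ETS and RUNX letters, the *Il12rb2* window 1 match to the STAT letters, and the *Il4ra* window 1 match to the ETS letters. The STAT match began 142 bases before the RefSeq start used in *Il7r* and 123 bases before it in *Il12rb2*. Of all 32851 windows of the same length, 8.3% held the STAT letters, 16% the TCF/LEF letters, 16.8% the RUNX letters, 35.4% the ETS letters and 14% the GFI1 letters. Windows were at hand for 8 of the 10 genes, and 1 window per gene was used where a gene had more, as *Il15ra* (2) and *Il18r1* (3) did. The start used lay 300 bases downstream of the GENCODE start for *Il7r*, 151 bases downstream for *Il4ra* and 0 bases from it for *Il12rb2*. The whole *Il7r* window, with its STAT match, thus lies inside the gene as GENCODE places it. Most of the *Il4ra* window does so too. None of the 8 held the TCF/LEF or GFI1 letters, the windows of *Il2rg*, *Il2ra* and *Il15ra* held the ETS letters and those of *Il2rg* and *Il21r* the RUNX letters. A match describes the letters only and is not a site of binding, and the motifs were chosen after the results were known.

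*Il2ra* encodes the IL-2 receptor alpha chain (CD25), which raises the affinity of the receptor for IL-2 and is induced on activated T cells. It lies on chromosome 2 from 11642807 to 11693193. It was at 161, 183, 170 and 232 CPM in S1 to S4 and at 309, 318, 335 and 336 CPM in S5 to S8. The KO samples lay close together, and the highest WT sample, S4, stood nearer to them than the other 3. The log2 fold change was 0.80 (SE 0.11, 95% interval 0.57 to 1.04, adjusted p = 0.000132).

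Regulatory T cells also carry CD25, and their defining gene *Foxp3* was at 0.408 to 2.47 CPM in WT and 1.34 to 4.07 CPM in KO samples (log2 fold change 1.14, SE 0.73, adjusted p = 0.37). *Cd4* was at 1.86 to 6.87 CPM in WT and 7.26 to 26.2 CPM in KO samples (log2 fold change 1.65, SE 0.42, adjusted p = 0.0161). Of 5 markers of CD4+ and regulatory T cells, *Zbtb7b* and *Cd40lg* were called higher, none was at 0 in a sample, and the summed level was 343 to 427 CPM in WT and 371 to 478 CPM in KO samples, most of it *Ikzf2*. Their part in the level of *Il2ra* was not tested.

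*Il15ra*, the IL-15 receptor alpha chain gene that lies next to *Il2ra* with 12097 bases between them, is known for presenting IL-15 to neighbouring cells. It was at 24.9, 27.6, 25.0 and 18.3 CPM in S1 to S4 and at 23.1, 28.9, 23.0 and 23.6 CPM in S5 to S8. The groups overlapped, and the log2 fold change was 0.04 (SE 0.17, 95% interval -0.32 to 0.40, adjusted p = 0.931). Its counts, 3118 over all samples, were the fewest of the 10 genes.

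*Il4ra* encodes the IL-4 receptor alpha chain, which signals to STAT6, and lies on chromosome 7 from 125552120 to 125579474. It was at 164, 144, 161 and 142 CPM in S1 to S4 and at 83.3, 73.2, 70.5 and 77.1 CPM in S5 to S8. Both groups were tight and far apart, and the log2 fold change was -1.01 (SE 0.10, 95% interval -1.22 to -0.79, adjusted p = 5.23e-06).

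Macrophages also express *Il4ra*, and the myeloid markers fell in the same direction. The summed myeloid level was 493, 601, 1514 and 846 CPM in the WT samples S1 to S4, where *Il4ra* was at 164, 144, 161 and 142 CPM. The part of myeloid RNA in the fall of *Il4ra* was not tested. With the myeloid score as a covariate the adjusted p of *Il4ra* was 0.183 in edgeR.

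*Il21r* encodes the IL-21 receptor and follows *Il4ra* on chromosome 7, with 23955 bases between the genes. It was at 197, 149, 161 and 180.2 CPM in S1 to S4 and at 166, 145, 179 and 150.0 CPM in S5 to S8. The groups overlapped, and the log2 fold change was -0.10 (SE 0.11, 95% interval -0.34 to 0.13, adjusted p = 0.636).

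Both chains of the IL-12 receptor were higher in KO cells. *Il12rb2*, the chain that recruits STAT4, lies on chromosome 6 from 67291318 to 67376188. It was at 239, 212, 237 and 259 CPM in S1 to S4 and at 512, 534, 674 and 355 CPM in S5 to S8. The KO samples spread more than for any other of these genes by their CPM relative to the mean, from S8 to S7, yet all lay above the WT samples. The log2 fold change was 1.13 (SE 0.15, 95% interval 0.82 to 1.44, adjusted p = 6.76e-05), and leaving out each sample gave values between 0.98 without S7 and 1.27 without S8.

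Exons of *Serbp1* on the opposite strand overlap 1519 bases of *Il12rb2* exons, and *Serbp1* had 88.8% as many counts as *Il12rb2* over all samples. The strand setting of the counting was not given in the sources used here, so reads from this stretch may be lost or misassigned. *Serbp1* itself had a log2 fold change of -0.31 (SE 0.11, adjusted p = 0.0919).

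*Il12rb1*, the chain shared by the IL-12 and IL-23 receptors, lies on chromosome 8 from 70808449 to 70821424. It was at 51.0, 52.1, 51.1 and 49.9 CPM in S1 to S4 and at 77.7, 84.9, 101 and 88.2 CPM in S5 to S8. The WT samples were almost equal, and the log2 fold change was 0.79 (SE 0.11, 95% interval 0.55 to 1.03, adjusted p = 0.000186). *Il23r*, the other chain of the IL-23 receptor, had too few counts to be tested and reached at most 1.65 CPM in a sample.

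*Il18r1* encodes the alpha chain that binds IL-18 and lies on chromosome 1 from 40465552 to 40500854. It was at 275, 248, 234 and 277 CPM in S1 to S4 and at 474, 404, 429 and 358 CPM in S5 to S8. The groups did not overlap, S8 being nearest to the WT samples, and the log2 fold change was 0.69 (SE 0.10, 95% interval 0.47 to 0.91, adjusted p = 0.000284). The interval of *Il18r1* reaches below the fold of 1.5, as do those of *Il2ra* and *Il12rb1*. A test of the fold change itself against 1.5, edgeR's glmTreat, kept *Il7r*, *Il12rb2* and *Il4ra* among the 6 calls.

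**Figure D2:**
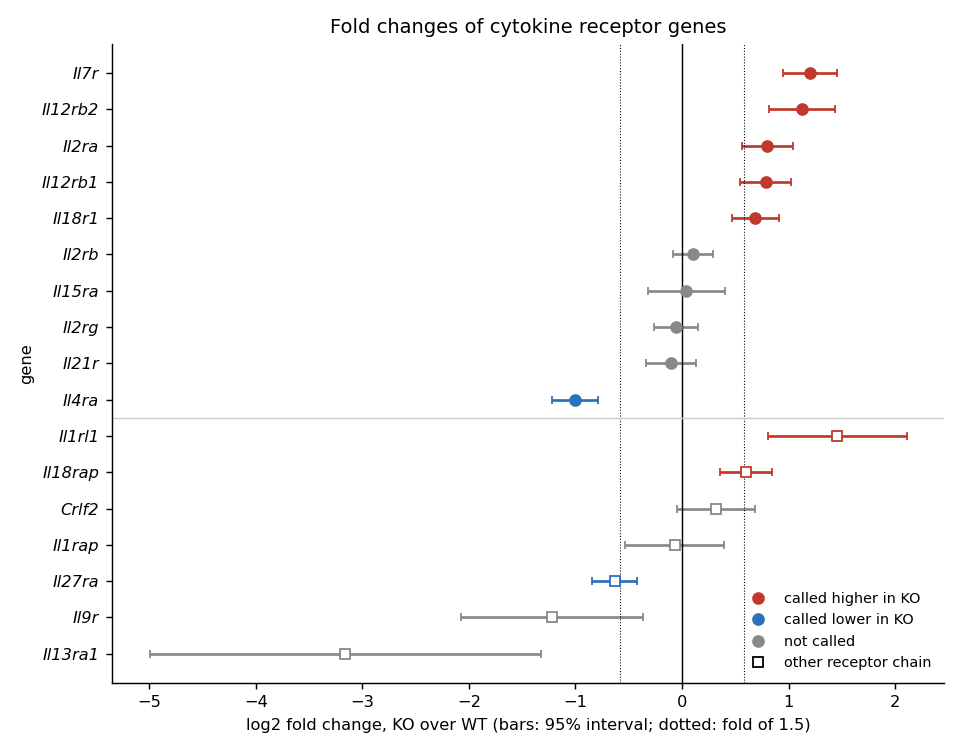
Log2 fold changes of KO over WT with 95% intervals for the 10 receptor genes (filled circles) and 7 other chains of these receptor families that were tested (open squares), with red for genes called higher, blue for lower and gray for not called. *Il7r* and *Il12rb2* lie wholly above the dotted line at a fold of 1.5 and *Il4ra* wholly below its counterpart, while *Il2rb*, *Il15ra*, *Il2rg* and *Il21r* straddle 0.

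The genes next to *Il18r1* on chromosome 1 belong to the same receptor family. *Il18rap*, which encodes the second chain of the IL-18 receptor and starts 14508 bases after *Il18r1*, was at 494, 473, 496 and 520 CPM in S1 to S4 and at 943, 773, 685 and 605 CPM in S5 to S8. Its log2 fold change of 0.60 (SE 0.12, adjusted p = 0.00243) was just past the threshold of 0.58, and the call was lost without S5 (0.47), without S2 (0.58, adjusted p = 0.0129), and with upper quartile scaling or library size alone (0.58 in both). *Il1rl1*, which encodes the IL-33 receptor ST2, ends 137 bases before *Il18r1*.

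*Il1rl1* was at 4.71, 7.03, 4.24 and 11.5 CPM in S1 to S4 and at 24.4, 20.9, 11.9 and 17.9 CPM in S5 to S8. Its highest WT sample, S4, almost reached its lowest KO sample, S7, and the log2 fold change was 1.46 (SE 0.31, adjusted p = 0.00478). The adjusted p rose to between 0.0159 and 0.0179 with S1, S2, S3, S5 or S6 left out. *Il1rl2*, the next gene before it, had a log2 fold change of 0.04 (SE 0.50, adjusted p = 0.978).

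At the other loci the nearest genes differed in response. *Il2ra* rose and its neighbour *Il15ra* did not pass the test, and *Il4ra* fell beside *Il21r*, which did not pass it. Of the protein-coding genes directly flanking the 6 called receptor genes, none of those tested outside chromosome 1 was called, while *Capsl*, *Gm17490* and *Il23r* had too few counts to be tested. Next to *Il2rb*, which was not called, *C1qtnf6* was lower at a log2 fold change of -1.74 (SE 0.18, adjusted p = 7.28e-06). *Spef2*, 48017 bases after *Il7r*, had a log2 fold change of 1.61 (SE 0.39, adjusted p = 0.0124). These neighbours were looked up after the values of the receptor genes were known.

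Levels of different genes were compared as RPKM, the TMM-normalized CPM per kilobase of exon. For *Il12rb2* the exon length includes the stretch shared with *Serbp1*, where reads may be lost or misassigned. Its level and its place in the order are therefore less certain. In WT cells the order of mean level was *Il2rb* at 299 ± 20.9 RPKM (SD, n = 4), *Il2rg* at 128 (115 to 144), *Il12rb2* at 62.5 ± 5.05, *Il18r1* at 53.6 ± 4.44, *Il21r* at 51.7 ± 6.39, *Il7r* at 39.5 ± 5.12, *Il2ra* at 32.6 ± 5.56, *Il4ra* at 25.5 ± 1.89, *Il12rb1* at 12.4 ± 0.218 and *Il15ra* at 5.39 ± 0.892 RPKM. The samples of neighbours in this order overlapped from *Il12rb2* down to *Il2ra* and at no other step. In KO cells *Il2rb* remained highest at 322 ± 27.1 RPKM (SD, n = 4) and *Il15ra* lowest at 5.54 ± 0.634 RPKM.

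Between them the order changed. *Il12rb2* moved to 137 ± 34.5 RPKM and overlapped with *Il2rg* at 124 ± 10.1 RPKM, and *Il7r* rose past *Il18r1* and *Il21r* to 90.9 ± 13.0 RPKM, overlapping with *Il18r1* at 86.4 ± 10.1 RPKM. *Il2ra*, at 56.8 ± 2.28 RPKM, stood above *Il21r*, at 48.2 ± 4.64 RPKM, with no sample in common. *Il4ra*, above *Il12rb1* in every WT sample, was at 12.7 ± 0.924 RPKM in KO cells and below it, at 21.4 ± 2.41 RPKM, in every KO sample.

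**Figure D3:**
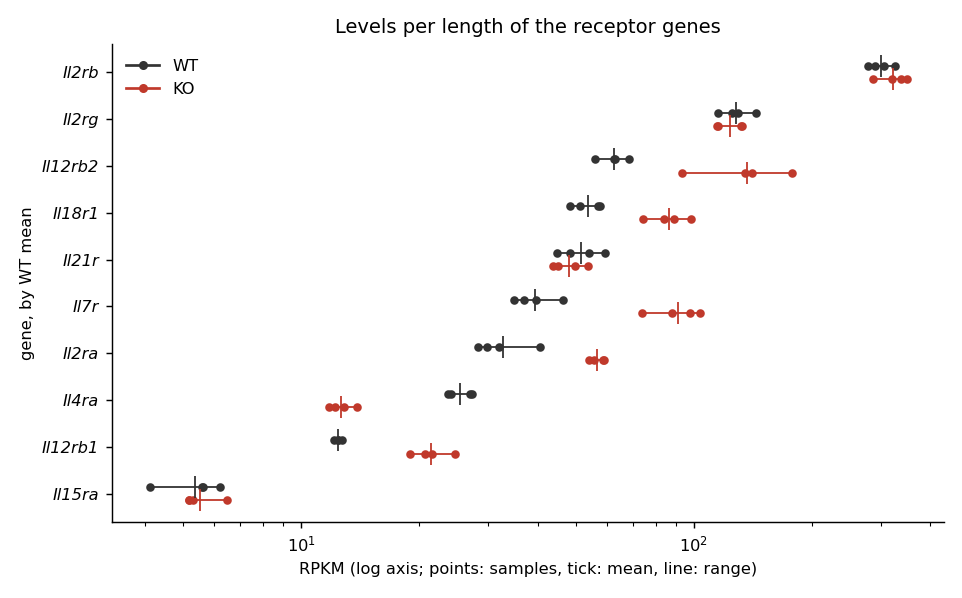
RPKM of the 10 receptor genes on a log axis, ordered by WT mean, with a point for each sample, a tick at the mean and a line over the range of each group (WT black, KO red, n = 4 each). *Il2rb* is the highest and *Il15ra* the lowest in both groups, and *Il4ra* and *Il12rb1* trade places.

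Ratios of chains that share a receptor do not depend on the scaling between samples. The ratio of *Il7r* to *Il2rg*, in RPKM, was 0.345, 0.269, 0.295 and 0.324 in the WT samples S1 to S4, against 0.764, 0.742, 0.782 and 0.646 in the KO samples S5 to S8. The ratio of *Il2ra* to *Il2rb* lay between 0.0923 and 0.125 in WT samples and between 0.156 and 0.206 in KO samples, and that of *Il4ra* to *Il2rg* between 0.164 and 0.237 and between 0.0885 and 0.120. In each of these 3 ratios the groups did not overlap. The exact two-sided permutation test gave p = 0.0286, the smallest that 4 samples against 4 allow. After Benjamini-Hochberg adjustment over the 8 ratios compared it was 0.0763, which did not pass 0.05. Each of the 3 divides a called gene by a gene that was not called, so the separation largely repeats the values above and is not separate support.

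The other ratios overlapped between the groups. The ratio of *Il12rb2* to *Il12rb1* was 5.03 ± 0.494 (SD, n = 4) in WT and 6.37 ± 1.36 (SD, n = 4) in KO samples (exact permutation test, p = 0.143), with S8, at 4.35, below all WT samples. That of *Il18rap* to *Il18r1* was 1.37 ± 0.100 (SD, n = 4) in WT and 1.28 ± 0.131 (SD, n = 4) in KO samples (exact permutation test, p = 0.314). The ratios of *Il2rb* to *Il2rg*, *Il21r* to *Il2rg* and *Il15ra* to *Il2rb* had exact permutation p = 0.114, 0.829 and 0.857.

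For each called receptor gene, the genes with the most similar profile over the 8 samples were found by the root mean square difference of log2 CPM after each gene was centered on its mean, among 11229 genes with a mean log2 CPM above 2. For *Il7r* they were *Havcr2*, which encodes the inhibitory receptor TIM-3, at a difference of 0.10, *Irf4*, a transcription factor of activated T cells, at 0.11, and *Il12rb2* at 0.13. *Havcr2* was also the nearest to *Il12rb2*, at 0.13, followed by *Il7r* and *Sdcbp2*. For *Il2ra* they were *Vim*, which encodes vimentin, at 0.08, *Capg* at 0.09 and *Syne3* at 0.12.

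*Il12rb1* was most like *Dusp10*, a phosphatase of MAP kinases, at 0.06, *Cd2*, an adhesion receptor of T cells, at 0.08 and *D030056L22Rik* at 0.10. *Il18r1* was most like *Zfp52*, *Gm37248* and *Atxn1*, all at 0.07. *Il4ra* was most like *Cdk6*, a cell cycle kinase, at 0.11, *Atp11a* at 0.13 and *Bend4* at 0.14. Both genotypes enter the profile, so genes with a similar fold change come close to each other by construction.

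Of 57 other genes of the same pathways, 48 passed the filter, 3 were called higher and 3 lower. Over all genes tested, 2.91% were called higher and 1.99% lower. The median log2 fold change was 0.12 in these lists, which were drawn up with earlier results known, against -0.01 over all genes tested. The ligands are made mostly by other cells, and 8 of the 12 had too few counts to be tested, with *Il9*, *Il12a* and *Tslp* at 0 in every sample. None of the 4 tested ligand genes was called. *Il18* was at 0, 0.654, 0 and 0 CPM in S1 to S4 and at 3.35, 2.26, 1.75 and 2.25 CPM in S5 to S8 (adjusted p = 0.0423), and *Il13* reached 1.81 CPM in WT and 6.38 CPM in KO samples (adjusted p = 0.0406). *Il2* lay between 0.808 and 7.42 CPM, and the groups overlapped (adjusted p = 0.766).

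Among 7 other receptor chains of these families that were tested, *Il18rap* and *Il1rl1* were called higher and *Il27ra* lower. *Il27ra*, which encodes the IL-27 receptor alpha chain, was at 119, 111, 105 and 110.03 CPM in S1 to S4 and at 78.1, 67.2, 70.9 and 70.8 CPM in S5 to S8. The groups did not overlap, and the log2 fold change was -0.63 (SE 0.10, adjusted p = 0.000524). *Il13ra1*, the partner of *Il4ra* on non-lymphoid cells, was at 1.86 to 7.67 CPM in WT, with its highest value in S3, and at most 0.751 CPM in KO samples (adjusted p = 0.0253). *Il9r* was at 4.70 to 12.9 CPM in WT and 1.59 to 4.12 CPM in KO samples (adjusted p = 0.0616). In S3, both were highest and the myeloid markers were highest too, and the part of that RNA was not tested.

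None of the 10 kinase and STAT genes was called, and neither were the 4 adaptors of IL-18 signalling or the 7 inhibitors. *Stat4*, which acts downstream of IL-12, was at 84.0 to 122 CPM in WT and 128 to 141 CPM in KO samples, a log2 fold change of 0.43 (SE 0.12, adjusted p = 0.0218). *Stat5a*, which acts downstream of IL-2, IL-7 and IL-15, was at 76.9 to 99.8 CPM in WT and 58.0 to 73.6 CPM in KO samples, a log2 fold change of -0.34 (SE 0.12, adjusted p = 0.077). *Jak1* and *Jak3* differed by 0.17 and 0.02 on the log2 scale and *Stat5b* by 0.12 (adjusted p = 0.206, 0.931 and 0.469).

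The feedback inhibitors of cytokine signalling, *Cish*, *Socs1* and *Socs3*, differed by 0.12, -0.02 and -0.20 on the log2 scale (adjusted p = 0.586, 0.972 and 0.586). Of 8 target genes, *Myc*, a growth regulator induced by IL-2, had 72.1 ± 11.2 CPM (SD, n = 4) in WT cells and was lower, at 33.2 ± 10.1 CPM (SD, n = 4), in KO cells, with a log2 fold change of -1.11 in edgeR (adjusted p = 0.00084, SE 0.19). *Bcl2*, the survival gene known to be induced by IL-7, was at 294, 370, 349 and 275 CPM in S1 to S4 and at 163, 124, 158 and 270.4 CPM in S5 to S8. S8 stood apart from the other KO samples and next to the lowest WT sample.

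The log2 fold change of *Bcl2* was -0.84 (SE 0.18, adjusted p = 0.005), and the call was lost in DESeq2 (adjusted p = 0.0175) and with S2, S3, S5, S6 or S7 left out, where the adjusted p was 0.015 to 0.0237. *Ifng*, which IL-12 and IL-18 induce, was at 277 to 454 CPM in WT and 389 to 520 CPM in KO samples (log2 fold change 0.49, SE 0.14, adjusted p = 0.0331). *Pim1*, *Tbx21*, *Mcl1*, *Prf1* and *Gzmb* did not pass the test, with log2 fold changes of 0.26, 0.28, -0.12, 0.16 and 0.12.

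Of 8 transcription factor genes known to regulate these receptor genes, *Gfi1* was called. GFI1 is a repressor known to act on *Il7r* and to recruit LSD1. *Gfi1* was at 45.3, 38.6, 37.5 and 34.1 CPM in S1 to S4 and at 107, 107, 127 and 121 CPM in S5 to S8, a log2 fold change of 1.57 (SE 0.12, adjusted p = 2.4e-07). Every KO sample lay above every WT sample for *Gfi1*, as for *Il7r* and for 8.99% of all tested genes. A link between *Gfi1* and *Il7r* was not tested. *Foxo1* and *Gabpa*, known activators of *Il7r*, had log2 fold changes of 0.15 and -0.01 (adjusted p = 0.451 and 0.987), and *Runx1* and *Ets1* of 0.48 and 0.27 (adjusted p = 0.026 and 0.0537). *Eomes*, *Klf2* and *Runx3* had log2 fold changes of -0.86, -0.27 and -0.15 (adjusted p = 0.0477, 0.733 and 0.486 in edgeR), and the groups overlapped for each.

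**Figure D4:**
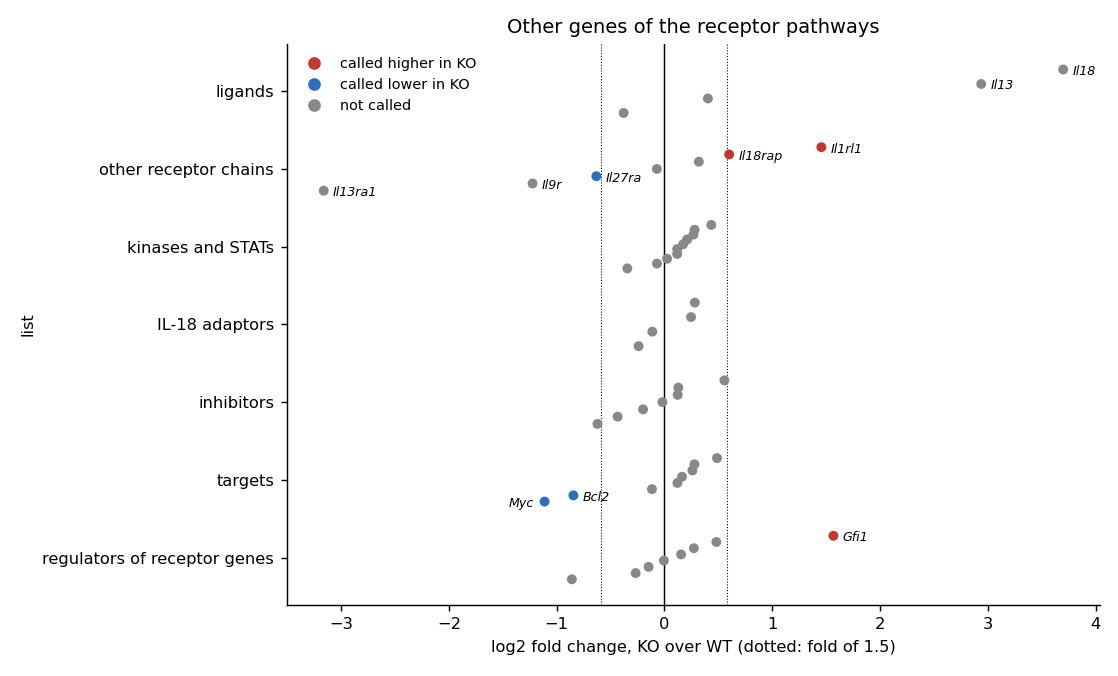
Log2 fold changes of KO over WT for the 48 tested genes of the ligand, receptor, kinase and STAT, adaptor, inhibitor, target and regulator lists, with red for genes called higher, blue for lower and gray for not called, and dotted lines at a fold of 1.5. The 6 called genes, *Il18rap*, *Il1rl1*, *Il27ra*, *Myc*, *Bcl2* and *Gfi1*, fall in the receptor, target and regulator lists, and the ligand changes past them rest on a few CPM.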

How the data were processed

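The authors aligned paired reads of directional, ribosomal RNA-depleted libraries with STAR to GRCm38, counted them on genes with featureCounts and deposited raw counts per gene, 1 column per sample. The deposited counts are not normalized. The authors' own test was DESeq2 with a GC content correction. The column names hold a number but no genotype. Columns S1 to S4 were taken as WT and S5 to S8 as KO after the key of the study's sample plot, and they could not be matched to the replicate numbers of the labels. WT samples are pools of 2 mice and KO samples are single mice, and p-values measure the spread between these samples. In WT that is a spread between pools and not between mice, so the spreads of the groups are not alike in kind. In no pair did the counts agree within sampling noise.

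All genes were fitted with edgeR 4.0.16 in R 4.3.3 (filterByExpr, TMM factors, glmQLFit, glmQLFTest, no covariate), which tested 15378 genes. Standard errors were obtained by dividing the size of the log2 fold change by the root of the F statistic, and 95% intervals use the moderated degrees of freedom. A count of 3 corresponds to 0.106 to 0.25 CPM, which covers counting error only. Coordinates and exon lengths were read from GENCODE M21 (GRCm38), where 55154 of 55335 gene IDs were found, and promoters from RefSeq on GRCm38.p6. The authors used a later GENCODE release of the same build. Among overlapping genes, *Gm37881* held 3.6% as many counts as *Il2ra*, without shared exon bases.

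The receptor genes, the lists and the motifs were chosen with earlier results of these data known. All 10 receptor genes were named, then the called genes of the pathway lists and a fixed set of their close relatives, *Kdm1a*, and the 3 nearest profiles of each called receptor gene. Chain ratios and neighbouring genes were added after the values were seen. *Serbp1*, *Spef2*, *C1qtnf6* and *Il1rl2* were named after their values were seen, as were *Runx1*, *Ets1*, *Il18* and other list genes below the thresholds. Of 5 NK cell, 4 B cell and 6 tumor and stroma markers, only 3, 1 and 2 had enough counts to be tested. *Fcer1g* of the NK cell list was called lower (log2 fold change -2.40). *Pecam1* of the tumor and stroma list was called higher (1.48), and no B cell marker was called. Of all genes tested, 4.9% were called in either direction. Alternatives were other scalings and filters, DESeq2 1.42.0, glmTreat, an adjusted p under 0.05, GC content offsets (mgcv 1.9.3), a myeloid score as covariate, a restriction to protein-coding genes, and fits lacking 1 sample.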

Additional observations from a re-analysis of the deposited data

Results flagged for a closer look

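In 32 groups of 4 samples (16 genes in each genotype), 1 sample stood apart by Dixon's criterion, against 1.6 expected by chance at 1 in 20. *Il15ra* in S6 was at 28.9 CPM against 23.0 to 23.6 CPM in the other KO samples, a gap of 0.899 of the group's range on the log2 scale. No other receptor gene, and none of the 6 called pathway genes, was flagged this way.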

How the results depend on the processing

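The 5 higher and 1 lower receptor genes were each still called when any one sample was left out and under every other alternative except glmTreat, which left 2 higher, and the myeloid covariate, which left 0 higher and 0 lower. Over the fits that left out one sample, the numbers of higher and lower receptor genes stayed at 5 and 1. Of the other pathway genes, 3 higher and 3 lower became 5 and 3 with DESeq2, 1 and 0 with glmTreat, 5 and 5 at an adjusted p under 0.05, 0 and 0 with the myeloid covariate, and 4 and 7 without a filter. The 3 lower genes with DESeq2 were not the same 3, since *Bcl2* was not called there (DESeq2 adjusted p = 0.0175). Leaving out one sample gave between 1 (without S5) and 5 (without S4) higher genes and between 2 and 5 (without S8) lower genes. The cause of these changes was not tested. Genes that were not called changed sign close to 0, *Il2rg* to 0.015 with the myeloid covariate and 0.004 without S4 (range without one sample -0.102 to 0.004), and *Il15ra* to -0.07 without S4 and -0.043 without S6 (range -0.07 to 0.114). No paired analysis was possible because the columns carry none of the replicate numbers of the labels. Those numbers would not have been enough for one, since neither the labels nor the paper pairs a WT pool with a KO mouse. The design is therefore not known to be paired. The least abundant receptor gene had 3118 counts in all, while most ligands had too few to be tested. Each group holds 4 samples, so single exact tests cannot go below 0.0286.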

Other observations

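The KO samples were not alike. S8 was the lowest KO sample in 5 of the 10 receptor genes, *Il2rg*, *Il7r*, *Il2rb*, *Il12rb2* and *Il18r1*, and the highest in 1, *Il2ra*. Of the KO samples S8 also had the most *Kdm1a*, at 34.8 CPM against 25.2, 30.5 and 32.0 CPM in S5 to S7, and the most counts, 30295406. In S5 to S7, *Il7r* was at 411, 456 and 484 CPM and *Il12rb2* at 512, 534 and 674 CPM. Counts over the whole gene do not measure how far *Kdm1a* was deleted in a sample. The part of *Kdm1a* level or of depth in the receptor values was not tested. Without S8, the log2 fold changes of *Il7r*, *Il12rb2* and *Il18r1* were 1.29, 1.27 and 0.76, against 1.20, 1.13 and 0.69 with all samples.

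Among the WT samples, S4 was the highest in 6 receptor genes, *Il2rg*, *Il7r*, *Il2ra*, *Il2rb*, *Il12rb2* and *Il18r1*, and the lowest in 3, *Il15ra*, *Il4ra* and *Il12rb1*.

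*Bcl2* was lower in KO cells, by a call that was lost in DESeq2 and in several fits lacking 1 sample. *Il7r* was higher in the same samples. A relation between *Il7r* and *Bcl2* was not tested. In S5 to S8, *Il7r* was at 411, 456, 484 and 345 CPM and *Bcl2* at 163, 124, 158 and 270.4 CPM, so that S8 had the least *Il7r* and the most *Bcl2*, while S7 had the most *Il7r* and S6 the least *Bcl2*.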
